A study of Mus musculus with 2 samples.

Results

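All CD45-positive cells recovered from 4 subcutaneous tumours were compared between mice in which Havcr2, the TIM-3 gene, was targeted and control mice, with 1 mean per mouse. The comparison used the 4521 tumour cells of 12458 cells in the series: 1691 and 1003 cells of the control mice (WT1 and WT2) and 1354 and 473 of the knockout mice (KO1 and KO2). Cells were chosen by the tissue and mouse recorded for each cell, with no use of expression.

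The mice were C57Bl6 and bore tumours of MC38-OVAdim, a colon carcinoma line that carries ovalbumin as a model antigen. Controls had floxed Havcr2 alleles (Havcr2fl/fl), and in KO mice Havcr2 was targeted. The labels name neither the Cre driver nor the exons removed, nor the age or sex of the mice. The sort enriched dendritic cells (DC), so shares of cells describe the sorted cells and not the tumour. Each of 2 droplet channels of 5' single-cell RNA sequencing held 1 WT and 1 KO mouse (WT1 with KO1, WT2 with KO2), so genotype was balanced over channels.

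TIM-3, the protein made from Havcr2, is a surface receptor of the immunoglobulin superfamily found on dysfunctional T cells and on DC, monocytes and macrophages. It has no classical inhibitory motif in its tail and binds ligands such as galectin-9, HMGB1 and CEACAM1. In tumours it is studied as an immune checkpoint on both T cells and myeloid cells, and the series asks how it restrains immunity to the tumour through the inflammasome, the complex that activates caspase-1 and releases IL-1β and IL-18.

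In unique molecular identifiers (UMIs), WT1 and WT2 had 28498154 and 16604595, and KO1 and KO2 had 23621431 and 8206612. A median cell held 14516 (WT1), 13877 (WT2), 16751.5 (KO1) and 15360 (KO2) UMIs, and the median mitochondrial share was between 1.54% and 1.80% in the 4 mice. Ptprc, the gene of CD45, was detected in 83.4% to 91.2% of cells. The channels shared 65 cell barcodes among all cells of the series. Names such as macrophage-like were given to clusters by their marker genes. Clusters 8, 15, 16, 18, 20, 22 and 25 were left unnamed, and of these 15 and 20 were of low depth.

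Havcr2 (chr11:46454935-46481255 in mm10, plus strand, protein coding) checked the labels. Its mean over all tumour cells was 0.737 UMIs per 10000 in WT1, 0.839 in WT2, 0.259 in KO1 and 0.150 in KO2, so both KO mice were below both WT mice and the mean was 3.85-fold lower. In macrophage-like cells it was 0.655 and 0.517 in WT against 0.0449 and 0.0312 in KO, with a UMI in 70.2% and 59.2% of WT cells and in 5.62% and 6.05% of KO cells. In monocyte-like cells it was 1.14 and 1.36 in WT against 0.510 and 0.350 in KO. Both classes had KO levels below WT levels without overlap.

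In nonclassical monocyte-like cells the Havcr2 levels of the genotypes overlapped, at 0.690 and 0.691 in WT against 0.540 and 0.850 in KO (log2 difference -0.02 ± 0.27 SE). The log2 difference in macrophage-like cells minus that in this class was -2.29 ± 0.33 SE, but that test between classes did not pass over all genes (adjusted p = 0.871). CD8 T cell-like cells also overlapped, at 1.72 and 0.255 in WT against 1.38 and 0.655 in KO, although WT2 had only 6 such cells. In cDC1-like cells, the cross-presenting DC, Havcr2 was 1.51 and 2.01 in WT against 0.335 and 0.0748 in KO, where KO mice had 5 and 7 cells. In NK cell-like cells Havcr2 had 0 UMIs in both KO mice and a UMI in 4.55% of 66 cells of WT1 and in 2 of 5 cells of WT2. The 0 among 34 and 9 KO cells allows a share of up to 8.82% and 33.3%, so no difference between genotypes was detectable in this class. WT1 had a median depth of 5575.5 UMIs in these cells against 23038 in macrophage-like cells. The libraries read 5' ends in every class, and these can lie outside the deleted part. Why Havcr2 was lower in some classes and overlapped in others was not tested.

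**Figure D1:**
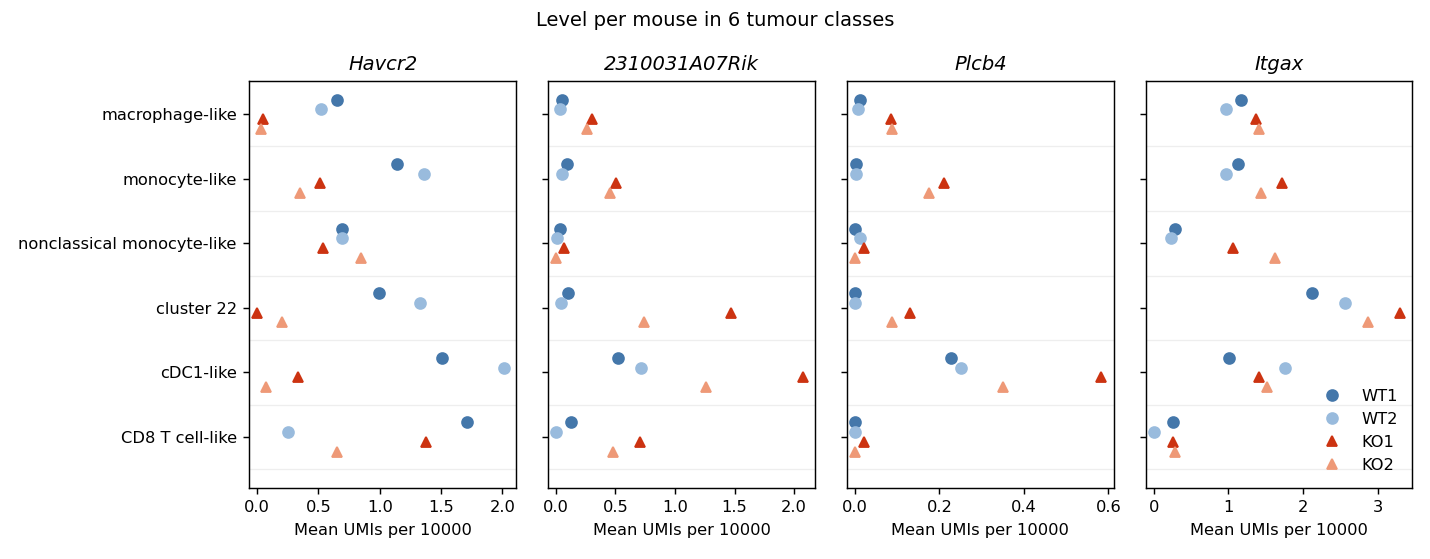
Mean UMIs per 10000 (linear axes) of 4 genes in 6 classes of tumour cells, with circles for WT mice and triangles for KO mice. Havcr2 was lower in both KO mice in macrophage-like, monocyte-like, cluster 22 and cDC1-like cells but overlapped in nonclassical monocyte-like and CD8 T cell-like cells.

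The cells of the 4 tumours fell into 22 classes, of which 15 had at least 20 tumour cells and were compared. Macrophage-like cells were the largest, at 41.3% of WT1, 38.1% of WT2, 53.9% of KO1 and 52.4% of KO2 (39.7% ± 2.26 SD in WT and 53.2% ± 1.05 in KO, n = 2 each). Most of that difference lay in 1 of the 3 clusters of the class, cluster 2, at 24.7% and 18.9% in WT against 36.6% and 30.2% in KO. Monocyte-like cells were 20.2% and 33.8% in WT against 19.9% and 18.8% in KO, so only WT2 stood apart. Macrophage and both monocyte classes together made up 68.4% and 80.6% of WT and 79.7% and 75.7% of KO cells, which overlap.

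The DC classes together took a smaller share in both KO mice, but the pDC-like class overlapped, at 0.118% and 0.399% in WT against 0.222% and 0% in KO. The cDC1-like, cDC2-like, mature DC-like and plasmacytoid DC-like (pDC-like) classes summed to 6.09% and 4.79% of WT cells against 1.26% and 2.11% of KO cells, a 3.23-fold difference of the means. The cDC2-like class, the DC that present to CD4 T cells, was 1.42% and 2.19% in WT against 0.517% and 0.423% in KO. Cluster 22, led by Ifitm1, Timd4, Il1r2, Mgl2 and Epcam and left unnamed, was 2.60% and 2.69% in WT against 0.665% and 0.846% in KO. The class nearest to cluster 22 by markers was cDC2, with 4 of 8 markers raised. The mature DC-like class rested on WT1, with 34 cells there against 3 in WT2, 2 in KO1 and 1 in KO2. Summed marker levels over all tumour cells were lower in both KO mice for cDC2 (2.94 and 3.69 in WT against 2.69 and 2.895 in KO). They overlapped for mature DC and for cDC1 (6.75 and 5.71 against 5.97 and 6.16). For pDC they were higher in both KO mice (8.32 and 7.47 against 10.7 and 9.58).

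Lymphocyte classes differed more between the WT mice than between genotypes. T and NK cell classes together were 10.9% of WT1 but 1.59% of WT2, with 10.5% of KO1 and 8.67% of KO2 between them. CD8 T cell-like cells were 3.84% and 0.598% in WT against 6.43% and 4.23% in KO, without overlap. Regulatory T cell-like cells and NK cell-like cells overlapped, at 2.84% and 0.399% against 1.55% and 2.33% for the former. Neutrophil-like cells were 1.36% and 2.39% in WT against 0.443% and 1.06% in KO.

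By limma on log2 shares, with p-values adjusted by the Benjamini-Hochberg method, 0% of the 15 classes passed at 0.05. At an unadjusted p under 0.05 there were 3, cluster 22 (log2 difference -1.72 ± 0.39 SE, adjusted p = 0.133), cDC2-like (-1.74 ± 0.43, adjusted p = 0.133) and fibroblast-like cells (-1.14 ± 0.40, adjusted p = 0.248). With 2 mice against 2, an exact permutation test cannot go below p = 0.333.

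**Figure D2:**
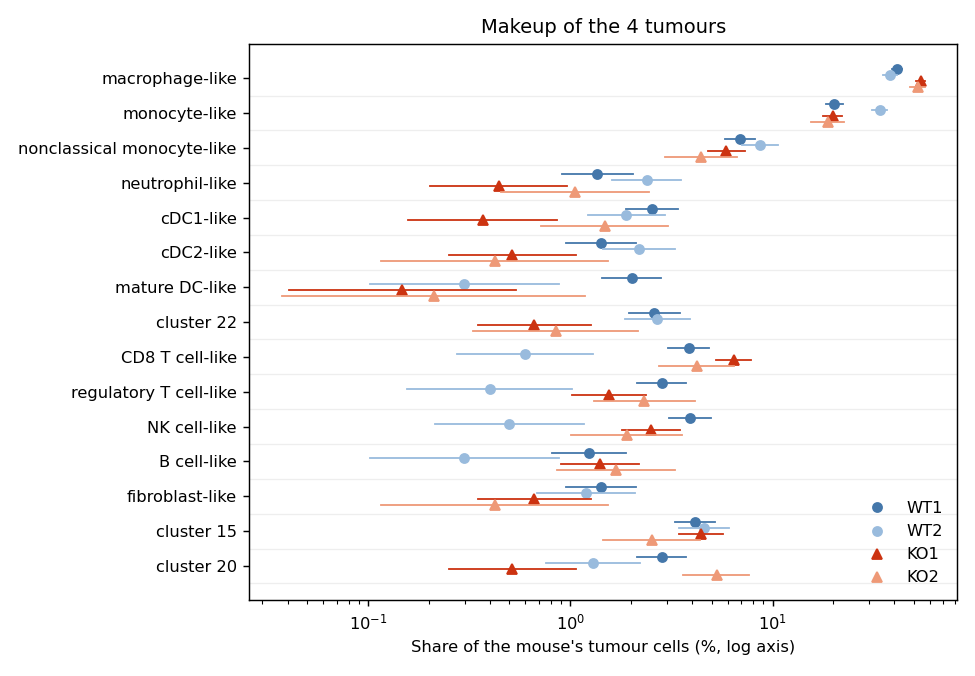
Share of each mouse's tumour cells in 15 classes (%, log axis), with circles for WT, triangles for KO and bars for 95% Wilson binomial intervals, which cover counting error only. Macrophage-like cells lie higher and cDC2-like cells and cluster 22 lower in both KO mice, and the lymphocyte classes of WT2 lie apart from the other 3 tumours.

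Over all tumour cells, limma on log2(mean UMIs per 10000 + 0.1) called 0% of 10839 genes at an adjusted p under 0.05. At an unadjusted p under 0.05 there were 594 genes, and limma-voom on summed UMIs also called 0. The spread between mice was as large as the difference of genotypes: the median gene differed by 0.11 on the log2 scale between WT1 and WT2, by 0.10 between KO1 and KO2 and by 0.08 between the group means. Leaving out WT1 or WT2 sets the KO mice against the other WT mouse alone, so such a fit holds no spread between WT mice. Its difference also carries the traits of the WT mouse that stays: WT1 was rich in mature DC-like cells and WT2 poor in T cells. Without WT2, Ccr7, a gene of mature DC, differed by -1.71 on the log2 scale, against -0.64 with all mice. Both KO mice lay above both WT mice for 15.1% of genes and below for 20.5%, and counts of separated genes below are read against these shares. The log2 difference lay above 0 for 45.9% of genes over all cells. Inside macrophage-like, monocyte-like and nonclassical monocyte-like cells it did so for 42.9%, 47.6% and 46.15%. Counts of genes above 0 are read against these.

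To separate makeup from change within cells, the difference of each gene was split in 2. The makeup part is what the shares of classes account for at the mean level of each class, and the within-class part is what levels inside classes account for at the mean shares. Summed over the 10839 genes in size, the within-class parts came to 898 UMIs per 10000 and the makeup parts to 495. The within-class parts were thus 64.5% of the 2 sums together. That is not a share of the genotype difference, whose summed size was 1062, because parts of opposite sign cancel. Spread between mice adds to both sums, and how much it adds was not tested. The parts had the same sign for 45.6% of genes. Of 158 genes whose group means differed by a log2 ratio of at least 0.5, the makeup part was the larger for 58 (36.7%).

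For C1qb, Apoe and Cst3, which mark macrophages or DC and helped to define the classes, makeup was the larger part. C1qb, a subunit of complement C1q made by macrophages, was 41.2 and 33.9 UMIs per 10000 in WT against 51.3 and 48.4 in KO, and 8.51 of the 12.3 difference was makeup. Apoe, a lipid carrier of macrophages, was 39.6 and 35.9 against 48.1 and 42.4, and its makeup part of 7.62 stood beside a within-class part of -0.12. Cst3, the cystatin abundant in DC, was 44.8 and 33.6 in WT against 24.98 and 30.7 in KO, with -10.2 from makeup, of which cluster 22 alone gave -5.52; its within-class part was -6.86 in channel 1 and 4.22 in channel 2. None of these 3 passed the test over all cells (adjusted p between 0.80 and 0.89 by limma).

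Il1b, the cytokine released through the inflammasome, was 9.43 and 14.2 UMIs per 10000 in WT against 7.03 and 7.93 in KO. Both KO tumours were below both WT tumours, but the log2 difference of -0.63 ± 0.19 SE did not pass (adjusted p = 0.80). Of its difference, -3.61 was makeup, led by the monocyte-like class with -1.59 and the neutrophil-like class with -1.57, and -0.73 lay within classes. The makeup part was -1.56 in channel 1 and -5.85 in channel 2, whose WT mouse was the one high in monocyte-like cells. At fixed makeup the Il1b difference was -0.09 ± 0.10 SE, and it was -0.03 in macrophage-like and -0.04 in monocyte-like cells.

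Other genes of the inflammasome and IL-1 family lay on both sides of 0, between -0.997 and 0.70 on the log2 scale over all cells. Casp1, which cleaves pro-IL-1β, was 0.818 and 0.706 in WT against 0.931 and 0.832 in KO without overlap, with a fixed-makeup difference of 0.22 ± 0.13 SE. Nlrp3, a sensor, overlapped at 0.370 and 0.478 against 0.404 and 0.429. Il18, the other cytokine matured by caspase-1, was 0.0595 and 0.0801 in WT against 0.0440 and 0.0547 in KO, 1.42-fold lower without overlap. Il1rn, the IL-1 receptor antagonist, overlapped over all cells but was 0.44 ± 0.10 SE higher at fixed makeup, where a makeup part of -0.469 opposed a within-class part of 0.890. That makeup part was 0.00568 in channel 1 and -0.890 in channel 2. Of the 17 inflammasome and IL-1 family genes, 11 lay above 0 over all cells and 12 at fixed makeup, 5 were separated upward and 3 downward, and none passed.

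**Figure D3:**
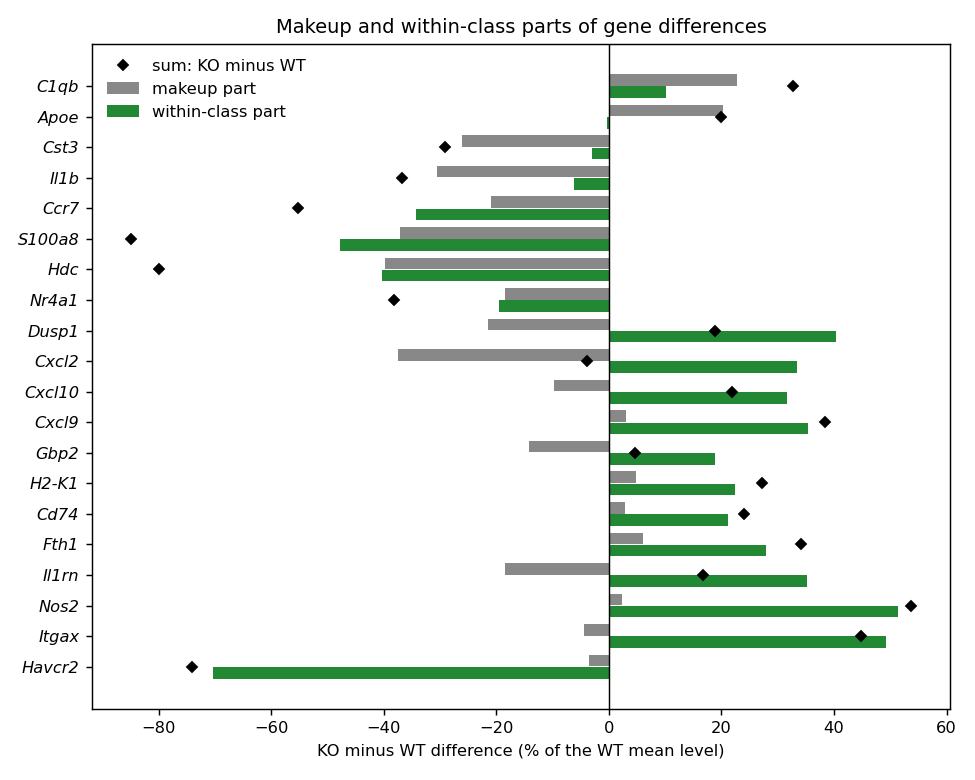
KO minus WT difference of 20 genes as a percentage of the WT mean level, split into the makeup part (grey bars) and the within-class part (green bars), with a diamond at their sum. C1qb, Apoe, Cst3 and Il1b lie mostly with makeup, Havcr2, Nos2 and Itgax mostly within classes, and Dusp1, Cxcl2, Cxcl10, Gbp2 and Il1rn have parts of opposite sign; the makeup parts of Cxcl10, Gbp2 and Il1rn are negative in channel 2 only.

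At fixed makeup, every mouse was given the same class weights over 9 classes that held 87.0% to 94.4% of its tumour cells. At these weights 46.6% of the genes tested lay above 0. Limma then called 5 genes, 0.0461% of 10839. Of these, 2310031A07Rik, Plcb4, Havcr2, S100a8 and Ccr7, the first 2 rose and the other 3 fell. Without WT1 there were 361 calls, without WT2 46 and without KO1 12. With the channel as a block, which pairs WT and KO mice of a channel, there were 134 calls, 78 up and 56 down, which held the same 5. The block fit leaves little residual spread for each gene, so its p-values rest largely on the variance pooled over genes. The block p-values and call counts below share this limit.

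Havcr2 had a log2 difference of -1.41 ± 0.12 SE at fixed makeup (adjusted p = 0.00457), against -1.57 over all cells (adjusted p = 0.176). Its within-class part was -0.555 UMIs per 10000 and its makeup part -0.0284. Within channel 1 the within-class part was -0.503 and within channel 2 it was -0.570.

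2310031A07Rik, a long intergenic RNA on the minus strand at chr11:46440362-46447248 (mm10), lies 7.69 kb from Havcr2. Its mean over all cells was 0.0722 and 0.0587 UMIs per 10000 in WT against 0.347 and 0.278 in KO. The rise at fixed makeup was 1.45 ± 0.12 SE in log2 units (adjusted p = 0.00457). The KO levels stood above WT in macrophage-like (0.2995 and 0.258 against 0.0510 and 0.0334) and monocyte-like cells (0.508 and 0.452 against 0.08995 and 0.0525). Nonclassical monocyte-like cells, where Havcr2 overlapped, had 0.0340 and 0.0118 in WT against 0.0686 and 0 in KO.

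Plcb4, a phospholipase C that acts downstream of G protein-coupled receptors, lies on chromosome 2. Its mean was 0.0169 and 0.0129 UMIs per 10000 in WT against 0.110 and 0.130 in KO, and it rose by 1.13 at fixed makeup (± 0.09 SE, adjusted p = 0.00457). In monocyte-like cells a UMI was found in 0.585% and 0.885% of WT cells against 21.2% and 23.6% of KO cells.

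S100a8, an alarmin of neutrophils, was 3.79 and 5.74 UMIs per 10000 in WT against 0.365 and 1.07 in KO. It fell by 1.46 at fixed makeup (± 0.16 SE, adjusted p = 0.0182), and its largest within-class part, -2.52, came from the neutrophil-like class, which held 6 and 5 KO cells and is defined by such genes. Over macrophage-like and monocyte-like cells alone the difference was -0.21 (adjusted p = 0.810). The part of neutrophil RNA in this call was not tested further, and the summed level of 6 neutrophil markers was 9.33 and 17.0 in WT against 1.29 and 3.03 in KO.

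Ccr7, the receptor that guides mature DC and naive T cells to lymph nodes, overlapped over all cells at 1.47 and 0.258 in WT against 0.319 and 0.452 in KO. At fixed makeup, which leaves out the mature DC-like class, it fell by 1.06 (± 0.11 SE, adjusted p = 0.0178). The call was lost with clusters as classes (-0.70, adjusted p = 0.706), with WT weights (adjusted p = 0.0931) and without KO2 (adjusted p = 0.0578).

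Interferon gamma response genes mostly lay higher in KO. All 16 tested lay above 0 at fixed makeup, with a median log2 difference of 0.38 against -0.01 for all genes, and 14 lay above 0 over all cells (median 0.24). The groups did not overlap for 7 of the 16, all of them higher in KO, against 15.1% of all genes. None passed by limma in either fit. The list's summed level was 40.8 and 34.8 UMIs per 10000 in WT against 48.7 and 42.0 in KO, and a makeup part of -2.82 stood against a within-class part of 10.4. The makeup part was 0.746 in channel 1 and -6.44 in channel 2, and the within-class part 7.14 and 13.7. In macrophage-like and monocyte-like cells the sums of the genotypes overlapped, with WT2 lowest. They were 38.8 and 25.4 in WT against 47.2 and 37.9 in KO in macrophage-like cells, and 69.8 and 49.3 against 76.4 and 69.4 in monocyte-like cells. In nonclassical monocyte-like cells, with 21 cells in KO2, the sums did not overlap, at 34.5 and 30.7 in WT against 42.8 and 61.9 in KO.

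Cxcl9, a chemokine that draws T cells through CXCR3, was 7.02 and 4.74 in WT against 8.78 and 7.49 in KO. At fixed makeup its difference was 0.47 ± 0.22 SE (adjusted p = 0.839, or 0.0343 with the channel block). Cxcl10, a ligand of the same receptor, overlapped over all cells at 6.33 and 4.65 against 7.12 and 6.26, with a makeup part of -0.540 and a within-class part of 1.74. The parts were of opposite sign in channel 2 (-1.42 and 3.03) but not in channel 1 (0.310 and 0.481). In the large classes both chemokines overlapped: Cxcl9 was 9.06 and 4.97 in WT against 11.1 and 8.98 in KO in macrophage-like cells and 11.9 and 6.85 against 11.04 and 10.4 in monocyte-like cells. Cxcl10 was 6.55 and 4.25 against 6.33 and 5.08 in macrophage-like cells and 13.2 and 6.91 against 14.2 and 12.3 in monocyte-like cells. In nonclassical monocyte-like cells, without overlap, Cxcl10 was 3.46 and 3.55 in WT against 8.52 and 22.4 in KO, and Cxcl9 0.975 and 0.189 against 2.58 and 7.19, with only 21 such cells in KO2. Neither passed there.

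Nos2, the inducible nitric oxide synthase of activated macrophages, was 0.345 and 0.452 in WT against 0.628 and 0.597 in KO. Its difference at fixed makeup was 0.50 ± 0.10 SE (adjusted p = 0.344, or 0.00956 with the channel block). Arg1, the arginase that competes with it for arginine, overlapped at 8.17 and 22.3 against 10.2 and 15.3. Gbp2, a guanylate-binding protein, overlapped over all cells and had a makeup part of -0.995 (0.125 in channel 1 and -2.04 in channel 2) against a within-class part of 1.32. Cd274, the gene of PD-L1, overlapped at 0.851 and 1.16 against 1.25 and 0.989.

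MHC class I genes lay higher in KO too. All 14 lay above 0 over all cells (median 0.22) and at fixed makeup (median 0.24), 7 without overlap, and none passed. H2-K1, a classical heavy chain, was 26.3 and 18.6 UMIs per 10000 in WT against 29.9 and 27.2 in KO, and B2m, the light chain, was 25.6 and 24.8 against 29.3 and 29.7. The summed makeup part of the list was -0.05 and the within-class part 19.3.

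MHC class II genes lay above 0 for 7 of 10 over all cells and for 10 of 10 at fixed makeup (medians 0.13 and 0.23). For none of the 10 were both KO mice above both WT mice over all cells, and for 2 both were below. Cd74, the invariant chain, overlapped at 208 and 161 in WT against 251 and 208 in KO, with 39.2 of its difference within classes and 5.16 from makeup (11.3 in channel 1 and -1.59 in channel 2). The classes differed in direction by count: 9 of 10 genes lay above 0 in macrophage-like cells (median 0.30), 7 of 10 in monocyte-like cells (median 0.01) and 2 of 10 in nonclassical monocyte-like cells (median -0.47). H2-Aa there was 26.9 and 18.8 in WT against 13 and 16.1 in KO. A test of the difference between these 2 classes called 0 of 7507 genes (363 at an unadjusted p under 0.05).

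Promoters of list members were searched for sequence elements. RefSeq promoters (GRCm38.p6, 250 bases before to 50 after the start) were found for 11 of the 16 interferon gamma response genes and 12 of the 14 MHC class I genes. The element bound by interferon-stimulated factors, GAAA and GAAA with any 2 bases between, on either strand, was in 8 of 11 and in 3 of 12, against 4.11% of the promoters of 8342 tested genes with an entry. The gamma-activated site TTCNNNGAA, searched in the same way, was in 4 of 11 and in 1 of 12, against 8.36%. Of the 10 MHC class II genes, 7 had a promoter entry, and the first element was in 0 of these and the second in 1. The promoters of Cxcl9, Tap1 and Psmb9 held neither element. A match is a description of letters and not of binding. Examples that hold the first element are Cxcl10 (chr5:92348840-92349139, minus strand), Gbp2 (chr3:142620413-142620712, plus strand) and B2m (chr2:122147437-122147736, plus strand), printed 5′ to 3′ with the element in capitals.
Cxcl10: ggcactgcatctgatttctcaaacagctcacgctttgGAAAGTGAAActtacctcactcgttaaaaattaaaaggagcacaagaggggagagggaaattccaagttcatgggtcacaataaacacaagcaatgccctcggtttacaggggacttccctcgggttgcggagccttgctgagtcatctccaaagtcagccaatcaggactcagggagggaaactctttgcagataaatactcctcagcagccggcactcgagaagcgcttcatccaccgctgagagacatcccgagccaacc
Gbp2: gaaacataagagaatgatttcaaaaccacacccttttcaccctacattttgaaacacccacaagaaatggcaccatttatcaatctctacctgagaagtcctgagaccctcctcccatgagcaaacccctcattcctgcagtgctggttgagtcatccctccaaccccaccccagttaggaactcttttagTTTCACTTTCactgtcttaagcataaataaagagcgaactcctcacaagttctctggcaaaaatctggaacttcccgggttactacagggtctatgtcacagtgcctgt
B2m: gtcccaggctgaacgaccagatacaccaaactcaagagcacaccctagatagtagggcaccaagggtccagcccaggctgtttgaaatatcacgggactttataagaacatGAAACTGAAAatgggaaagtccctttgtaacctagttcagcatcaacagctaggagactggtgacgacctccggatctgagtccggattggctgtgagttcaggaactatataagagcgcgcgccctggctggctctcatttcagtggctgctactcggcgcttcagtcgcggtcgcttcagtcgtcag

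Type I interferon-stimulated genes were mixed. Of 14, 4 lay above 0 over all cells and 6 at fixed makeup (medians -0.14 and -0.02). By class, 7 of 14 lay above 0 in macrophage-like cells (median -0.04), 12 of 14 in monocyte-like cells (median 0.22) and 10 of 13 in nonclassical monocyte-like cells (median 0.19). Isg15, a ubiquitin-like modifier, overlapped at 7.79 and 6.79 in WT against 7.11 and 4.78 in KO. Of the cytotoxic effector genes, all 10 lay above 0 over all cells with a median of 0.82, and 9 at fixed makeup with a median of 0.25. Their summed level was 32.1 in WT1 and 6.69 in WT2 against 28.9 in KO1 and 25.9 in KO2, so WT1 was the highest of the 4 tumours and WT2 stood apart. The makeup part of that sum was 4.29 and the within-class part 3.72, so the split was near even. With clusters as classes the parts were 6.165 and 1.845, so the split depends on how cells are grouped. The makeup part was -6.16 in channel 1 and 11.02 in channel 2. Gzmb, a granzyme, was 4.33 and 0.432 in WT against 3.53 and 2.51 in KO, and without WT2 Gzma, another granzyme, turned to -1.18 (adjusted p = 0.0168). Cd8a was 0.687 and 0.0984 against 1.32 and 0.691, and 0.480 of its difference was makeup against 0.134 within classes.

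DC maturation genes lay above 0 for 4 of 15 over all cells and 10 of 15 at fixed makeup, which leaves out the mature DC-like class, and Ccr7 was the 1 member called there. Of the 3 TIM-3 ligands, Lgals9 (galectin-9) overlapped, Hmgb1 was 3.83 and 3.67 in WT against 3.28 and 3.52 in KO, and Ceacam1 was 0.188 and 0.201 against 0.159 and 0.141. None of the 3 passed. Of 12 checkpoint genes, 10 lay above 0 over all cells, 2 were separated upward and none passed. The summed level of that list overlapped, at 9.25 and 5.05 in WT against 9.87 and 7.41 in KO.

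Iron handling genes were led by Fth1, the ferritin heavy chain, at 169 and 184 UMIs per 10000 in WT against 231 and 243 in KO. Its within-class part of 49.4 was the largest of any gene, and its makeup part was 10.9. Lipid-associated macrophage genes had a makeup part of 12.9 and a within-class part of -1.497 (7.39 in channel 1 and -7.996 in channel 2), and complement and resident-type macrophage genes 24.4 and 11.6.

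Proliferation genes mostly lay lower in KO: 2 of 17 lay above 0 over all cells and 0 of 17 at fixed makeup (medians -0.18 and -0.40), 6 without overlap against 20.5% of all genes. Cluster 11, the macrophage cluster led by proliferation genes, overlapped at 8.81% and 8.18% of WT cells against 6.57% and 10.4% of KO cells. Fixed makeup keeps the macrophage-like class whole. Of that class alone, cluster 11 held 149 of 698 and 82 of 382 cells in WT. In KO it held 89 of 730 and 49 of 248, a lower share in both mice. The within-class part of the list was -4.70, or -3.14 with clusters as classes. The part of cluster 11 in the lower levels was not tested. Tubb5, a tubulin, was 6.19 and 5.87 in WT against 5.08 and 5.67 in KO. Mitochondrial genome transcripts lay above 0 for 0 of 13 over all cells (median -0.29), 9 without overlap against 20.5% of all genes. Their within-class part was -9.05 in channel 1 and -51.9 in channel 2, and their makeup part 9.72 and -41.5. Their summed levels overlapped in macrophage-like and in monocyte-like cells. In nonclassical monocyte-like cells the sums were lower in both KO mice. Ribosomal protein genes lay above 0 for 8 of 83 over all cells and 1 of 83 at fixed makeup, with a within-class part of -107 (-60.1 and -176 in channels 1 and 2) against a makeup part of 31.5 (-44.1 and 129). None of these lists had a member called by limma. Median UMIs per cell over all tumour cells were higher in both KO mice than in both WT mice. In macrophage-like cells the medians were lower in KO, at 23038 and 23725.5 in WT against 22327.5 and 22630.5 in KO. Nonclassical monocyte-like cells were also lower in KO, and monocyte-like cells overlapped. The part of depth in these lists was not tested.

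**Figure D4:**
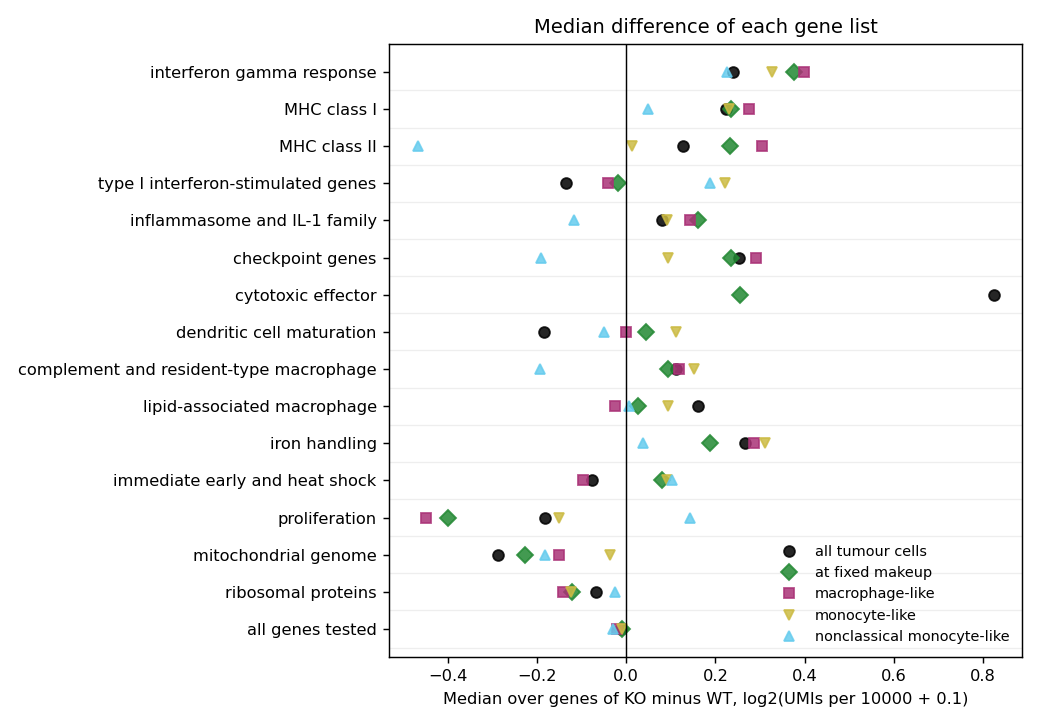
Median over the genes of each list of the KO minus WT difference on the log2(UMIs per 10000 + 0.1) scale, over all tumour cells, at fixed makeup and in 3 classes (lists with at least 5 tested genes). Interferon gamma response and MHC class I lie above 0 in all 5 fits, MHC class II lies below 0 in nonclassical monocyte-like cells, and the cytotoxic list moves from 0.82 to 0.25 at fixed makeup.

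Inside macrophage-like cells, limma called 5 of 9822 genes (0.0509%). Havcr2 fell by 2.31 in log2 units (± 0.13 SE, adjusted p = 0.00256), 2310031A07Rik rose by 1.41 (adjusted p = 0.0157) and Plcb4 by 0.77 (adjusted p = 0.0314). Lpl, the lipoprotein lipase, was 0.245 and 0.296 in WT against 0.0634 and 0.0643 in KO and fell by 1.18 (± 0.11 SE, adjusted p = 0.0225). Ltc4s, which makes leukotriene C4, was 0.301 and 0.308 against 0.0890 and 0.0617 and fell by 1.21 (± 0.11 SE, adjusted p = 0.0225). With the channel as a block there were 109 calls, without WT1 261, without WT2 17, and without KO1 or KO2 0.

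Inside monocyte-like cells, limma called 5 of 8767 genes (0.057%). Havcr2 fell by 1.36 (± 0.16 SE, adjusted p = 0.0213), and 2310031A07Rik and Plcb4 rose by 1.77 and 1.501 (both adjusted p = 0.00379). Rsrp1, an arginine- and serine-rich protein gene, was 1.93 and 1.57 UMIs per 10000 in WT against 3.49 and 3.32 in KO and rose by 0.93 (adjusted p = 0.0447). Mmp13, a collagenase, was 0.0610 and 0.0438 against 0.256 and 0.207 and rose by 1.12 (adjusted p = 0.0499); it is among the leading genes of a macrophage cluster. The channel block gave 95 calls, and leaving out WT1, WT2, KO1 or KO2 gave 26, 1, 242 or 29.

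Nonclassical monocyte-like cells had 0 calls among 7628 genes (0%), with 323 at an unadjusted p under 0.05 and 34 with the channel as a block. Leaving out WT1, WT2, KO1 or KO2 gave 3, 5, 817 or 5 calls. Itgax, the gene of CD11c, was 0.292 and 0.237 in WT against 1.06 and 1.62 in KO in this class, which did not pass. Over all tumour cells Itgax was 0.932 and 0.891 in WT against 1.30 and 1.33 in KO, with a within-class part of 0.449 and a makeup part of -0.0406, and a fixed-makeup difference of 0.55 ± 0.10 SE (adjusted p = 0.323, or 0.00286 with the channel block). Dusp1, a phosphatase that dampens MAP kinases, was 8.04 and 9.63 in WT against 10.2 and 10.9 in KO, where a makeup part of -1.90 (-0.828 in channel 1 and -2.93 in channel 2) opposed a within-class part of 3.57.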

How the data were processed

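CD45-positive cells with enriched DC were measured by 5' single-cell RNA sequencing. The build was mm10 and the reads were handled with Cell Ranger 3.0.2, per the submitters' processing notes; no source used here gives the filters on cells and genes. The authors deposited natural log values, ln(1 + UMIs per 10000), for 12638 genes in 12458 cells. After back-transformation, 100% of values were whole UMIs within 0.01. No cell was removed, and no doublet was called or removed.

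All cells were clustered with scanpy 1.11.5 (2000 variable genes, 30 components, 15 neighbours, Leiden resolution 1, seed 0) and clusters named from markers. A class name was rebuilt here and may differ from the study's. Each mouse's mean of UMIs per 10000 was tested as log2(mean + 0.1) with limma 3.58.1 (trend, genes with a UMI in 2% of tumour cells, or 5% within a class of at least 20 cells per mouse), two-sided, with Benjamini-Hochberg adjustment at 0.05. Such fold changes understate low genes. Fixed makeup weights classes with at least 5 cells in every mouse by their mean share. The main fits used no count model, because the deposited unit is a log. Limma-voom on summed recovered UMIs was run as an alternative, with trimmed-mean scaling written for this purpose. The limma script was tested on simulated data.

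The labels place 1 WT and 1 KO mouse in each channel, which pairs them; over genes, WT1 minus WT2 correlated with KO1 minus KO2 at 0.185 over all cells and 0.264 at fixed makeup. P values measure the spread between 2 mice a group, and limma pools part of that spread over genes. With the channel block, most of it is pooled. Genes named are Havcr2, genes that passed, those with the smallest p where fewer than 5 passed, the 3 highest members of each list, 14 set genes and those with the largest parts. Itgax, 2310031A07Rik, Plcb4, S100a8, Cxcl9 and Cd74 were also added after their values were seen. Members and lists were chosen with earlier results of these data known. The test of differences between classes, and the fits without clusters 15 and 20, with named classes only and with 2 strata, were chosen after seeing the data.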

Additional observations from a re-analysis of the deposited data

Results flagged for a closer look

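For 8 of the named genes, both KO mice lay on 1 side of both WT mice in 1 class and on the other side in another class. A test of the difference between classes (limma, adjusted over all genes) passed for none of them. The pattern was not counted over all genes, so no background share stands beside the 8. Over all tumour cells, both KO mice lay above both WT mice for 15.1% of genes and below for 20.5%. S100a8 differed by -0.93 between macrophage-like and monocyte-like cells. Hibadh differed by 0.49 between macrophage-like and monocyte-like cells and by 1.37 between macrophage-like and nonclassical monocyte-like cells. Vsir, a checkpoint gene, differed by 0.25 between macrophage-like and monocyte-like cells. Cd86, a costimulatory ligand, differed by 1.35 and Hmgb2, a chromatin protein, by -0.71 between macrophage-like and nonclassical monocyte-like cells. Between monocyte-like and nonclassical monocyte-like cells, Ceacam1 differed by -0.59, Gpx1 by -0.16 and Malat1 by 0.26. Adjusted p-values ran from 0.772 to 0.938.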

How the results depend on the processing

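The count of called genes over all cells stayed at 0 under other pseudocounts, filters, voom, the channel block (replicate block) and without cells of high mitochondrial share, without clusters 15 and 20, and with named classes only. It was 2 with a mean of per-cell log2 values, 15 with all 12 samples in the fit, and 0 to 350 leaving out each mouse. At fixed makeup the 5 calls became 134 with the replicate block and 6 to 361 leaving out each mouse. With the replicate block, calls were 109 in macrophage-like, 95 in monocyte-like and 34 in nonclassical monocyte-like cells, and leaving out each mouse gave 0 to 261, 1 to 242 and 3 to 817. No class share passed under any alternative run (0 to 0 leaving out each mouse). The within-class parts were 64.5% of the 2 summed sizes, or 59.4% in channel 2 alone. Leaving out each mouse, Gzma ran from -1.18 to 2.80 over all cells and from -0.55 to 0.90 at fixed makeup, and Gzmb from -0.63 to 0.71 at fixed makeup, negative without WT2. Causes were not tested. With 2 mice a group, and 473 cells in KO2, small classes could not be compared.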
